A study of Mus musculus with 4 samples.

Results

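Genes of the follicular helper T (TFH) cell program were followed through 10 members, *Bcl6*, *Ascl2*, *Tox*, *Tox2*, *Cxcr5*, *Icos*, *Sh2d1a*, *Il21*, *Il4* and *Rflnb*, in intestinal CD4+ T cells derived from TH17 cells. They were taken by their symbols, and all 10 were among the 13265 genes of the deposited table. For each gene, counts of corrected unique molecular identifiers (UMIs, each standing for 1 captured transcript) were added up over a group of cells, and the level is this sum per 10000 corrected UMIs of all genes. Across 5080 cells in 8 clusters the table held from 39 corrected UMIs of *Sh2d1a* to 9241 of *Icos*, and 9 of the 10 genes had at least 200. *Rflnb* was included because it marks the tissue-resident TFH cluster, whereas the other genes are known parts of the TFH program.

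TFH cells help B cells in germinal centers. The transcriptional repressor BCL6 installs the program, the chemokine receptor CXCR5 takes the cells into the B cell follicle, the costimulatory receptor ICOS and the adaptor SAP, encoded by *Sh2d1a*, sustain their contact with B cells, and the cytokines IL-21 and IL-4 act on those B cells. In the gut, TH17 cells are a known source of some of these cells, which support the antibody response in Peyer's patches.

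YFP+CD4+ T cells were sorted from the small intestine of C57BL/6 mice of 7 to 8 months and profiled by droplet-based 3′ single-cell RNA sequencing, in 4 samples, each from pooled animals. All mice carried *Il17a-cre* and *Rosa26-stop fl/fl-yfp*, so that YFP marks cells that have expressed *Il17a*, and Cre deletes or activates other alleles only after that point. TGFβR-KO mice (1 sample) also carried floxed *Tgfbr2*, which removes TGFβ receptor signaling. TGFβR-CA mice (1 sample) carried a constitutively active form of *Tgfbr1* behind a floxed stop, and TGFβR-WT mice (2 samples) carried no such allele. The comparisons address how TFH genes differ between the germinal center-localized (GC-TFH) and tissue-resident (TR-TFH) clusters, and whether loss or activation of the TGFβ receptor changes them.

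Cells labelled TGFβR-WT fell into sets of 709 cells (the larger) and 298 cells (the smaller), told apart by a suffix of the cell name and tied to neither TGFβR-WT sample. *Tgfbr1* set the sets apart, with 0.475 corrected UMIs per 10000 in GC-TFH and 0.339 in TR-TFH cells of the larger set against 3.1 and 2.04 in the smaller set. It was at 0.635 and 0.641 in cells labelled TGFβR-CA, above the larger TGFβR-WT set but below the smaller one. Whether the 3′ tag counts transcripts of the inserted active form was not known, so *Tgfbr1* does not check that label. Conditions are therefore those of the cell labels throughout, and any direction drawn for TGFβR-CA or TGFβR-WT rests on them. *Tgfbr2* was at 0.885 and 1.22 in GC-TFH and TR-TFH cells labelled TGFβR-KO and between 1.58 and 1.99 in those of the other sets, but a 3′ tag outside the deleted part does not check the deletion. Sets shared the barcodes of 32 cells, of which 15 were TGFβR-KO cells, 15 belonged to the larger TGFβR-WT set and 1 to each of the others. The paper describes 2 sequencing runs, 1 of TGFβR-KO with TGFβR-WT cells and 1 of TGFβR-CA with TGFβR-WT cells. The TGFβR-WT sets were not assigned to these runs here, so differences between the sets, or from either set, may include a difference of run. With 1 sample of TGFβR-KO, 1 of TGFβR-CA and no way to assign TGFβR-WT cells to their 2 samples, there was no replicate check and no test. A difference was therefore called by its size alone, at a ratio of at least 1.5. A difference from TGFβR-WT was called only where that ratio was passed against both sets.

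The GC-TFH cluster held 318 cells labelled TGFβR-KO, 141 and 58 of the larger and the smaller TGFβR-WT set and 263 labelled TGFβR-CA, and the TR-TFH cluster held 519, 327, 133 and 556. Median depth in these groups was between 3305 and 4254 corrected UMIs a cell, after a correction by the authors that brings cells to similar depth. The germinal center markers *Cxcr5*, *Bcl6*, *Pdcd1*, *Il21*, *S1pr2* and *Sostdc1*, summed, were at 12.3 to 20 per 10000 in the 4 GC-TFH groups and at 2.62 to 6.26 in the TR-TFH groups. The paper named the GC-TFH cluster in part by high *Cxcr5*, *Bcl6* and *Pdcd1*, so this sum describes the clusters and does not check their identity. T cell markers summed to between 76.1 and 88.5 in these 8 groups. *Cd8a* was at 0 in all of them, and with *Cd8b1* the sum was at most 0.0467. *Foxp3*, *Ikzf2*, *Il2ra* and *Il10*, listed for follicular regulatory T cells, summed to 4.20, 7.25, 3.60 and 5.65 in GC-TFH cells of TGFβR-KO, the larger and the smaller TGFβR-WT set and TGFβR-CA. In TR-TFH cells these sums were 1.89, 4.31, 3.72 and 3.51, and a part of such cells in the results was not tested. B cell genes were found in 6 of 9 listed, and their summed level was 0.325, 1.56, 0 and 0.205 in GC-TFH cells labelled TGFβR-KO, of the larger and the smaller TGFβR-WT set and labelled TGFβR-CA. The 4 plasma cell genes summed to 2.91 in TGFβR-KO and 3.78 in TGFβR-CA GC-TFH cells and to 0.277 and 0.290 in the TGFβR-WT sets, with *Jchain* and *Igha*, the joining chain and IgA heavy chain genes, making up most of it in TGFβR-KO and TGFβR-CA. Their part in the results was tested only by leaving out cells with at least 2 B or plasma cell genes.

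Upstream sequences are shown for *Ascl2* and *Il21*, the genes with the highest ratios of GC-TFH to TR-TFH cells in TGFβR-KO cells, for *Rflnb*, which went the other way, and for *Bcl6*, the regulator of the program. RefSeq promoters of GRCm38.p6 covered 6 of the 10 genes, all but *Cxcr5*, *Icos*, *Tox* and *Sh2d1a*, and only the 250 bases before each start site are used. The first 3 carry in capitals the E-box, CANNTG, the element that basic helix-loop-helix factors such as ASCL2 recognize. *Ascl2* lies at chr7:142969265-142969514, *Il21* at chr3:37232637-37232886 and *Rflnb* at chr11:76027783-76028032, each on the minus strand and printed 5′ to 3′.
Ascl2: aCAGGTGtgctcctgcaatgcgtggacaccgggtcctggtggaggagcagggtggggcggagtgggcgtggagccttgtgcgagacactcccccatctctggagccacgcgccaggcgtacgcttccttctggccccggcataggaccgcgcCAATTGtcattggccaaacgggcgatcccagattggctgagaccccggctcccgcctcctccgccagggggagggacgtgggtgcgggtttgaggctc
Il21: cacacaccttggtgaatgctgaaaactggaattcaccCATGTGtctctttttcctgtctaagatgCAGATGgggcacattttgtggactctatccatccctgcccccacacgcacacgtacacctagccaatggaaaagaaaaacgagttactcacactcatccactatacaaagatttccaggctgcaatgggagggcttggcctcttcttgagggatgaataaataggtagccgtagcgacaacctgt
Rflnb: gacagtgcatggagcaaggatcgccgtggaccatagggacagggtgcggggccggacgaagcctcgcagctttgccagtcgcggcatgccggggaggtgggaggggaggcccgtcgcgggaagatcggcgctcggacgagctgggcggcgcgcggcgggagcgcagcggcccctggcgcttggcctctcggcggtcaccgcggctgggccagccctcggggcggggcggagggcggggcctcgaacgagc
The E-box occurred 2 times before *Ascl2*, 2 times before *Il21* and 0 times before *Rflnb*, and 66.2% of 32851 promoters of this length held it, as read on both strands. Among the other covered genes, it occurred 1 and 0 times before the starts of *Bcl6*, 3 and 1 times before those of *Il4* and 0 or 1 times before those of *Tox2*. No link between these counts and the GC-TFH to TR-TFH ratios is read. The NFAT core GGAAA, searched on both strands, occurred 3 times before *Il21* and not before *Ascl2* or *Rflnb*, against 55.6% of promoters with at least 1 match. The sequence before *Rflnb* was 76.0% G or C and that before *Ascl2* 67.6%, compared with 47.6% for *Il21* and a median of 52.4% over all promoters.

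*Bcl6* has 2 start sites in RefSeq, and the downstream one, at chr16:23981284-23981533 on the minus strand, is shown with the STAT element TTCNNNGAA in capitals, since STAT factors are known inducers and repressors of this gene.
Bcl6: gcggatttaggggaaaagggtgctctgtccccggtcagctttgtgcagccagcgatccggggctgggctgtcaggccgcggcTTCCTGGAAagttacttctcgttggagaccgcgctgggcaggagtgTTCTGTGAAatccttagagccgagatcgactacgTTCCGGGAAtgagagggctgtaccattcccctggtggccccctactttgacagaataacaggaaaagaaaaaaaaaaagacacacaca
It held 3 such matches, which do not overlap each other, as did 9 of 32851 promoters with at least 3 (0.0274%), while 7.02% held at least 1. The other *Bcl6* start held 1. These matches describe letters in a window and not binding.

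The contrast of GC-TFH with TR-TFH cells is a description, because the authors' clusters were made from all genes, these included. In TGFβR-KO cells, 8 of the 9 genes with at least 200 corrected UMIs were at least 1.5 times as high in GC-TFH as in TR-TFH cells, all but *Rflnb*. In TGFβR-WT cells 7 of the 9 were, without *Tox2*, and in TGFβR-CA cells 6, without *Icos* and *Tox2*. *Sh2d1a* passed 1.5 in TGFβR-KO on 7 against 4 corrected UMIs, with an interval that holds 1, and is not counted. By the difference of mean deposited log values in place of the level, none of the genes passed the same limit in any condition (0 in each). That mean is taken over all cells after 1 is added to each count, so 1.5 is not the same limit on the 2 measures. It therefore cannot decide on the ratios of levels, and the calls rest on the level alone. *Icos*, *Tox* and *Tox2*, found in at least 50% of GC-TFH cells in every set, did not pass by this mean either. Why no gene passed was not tested. By the level, 23.2%, 16.8% and 16.2% of 7490 genes with at least 200 corrected UMIs were at least 1.5 times as high in GC-TFH cells in TGFβR-KO, TGFβR-WT and TGFβR-CA. *Rflnb* alone was lower in GC-TFH cells, in each condition, against 6.45%, 8.25% and 6.02% of all genes. The median log2 ratio over the 9 genes with at least 200 corrected UMIs was 1.24, 1.29 and 1.02 in TGFβR-KO, TGFβR-WT and TGFβR-CA, compared with 0.21, 0.12 and 0.16 over all genes.

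**Figure D1:**
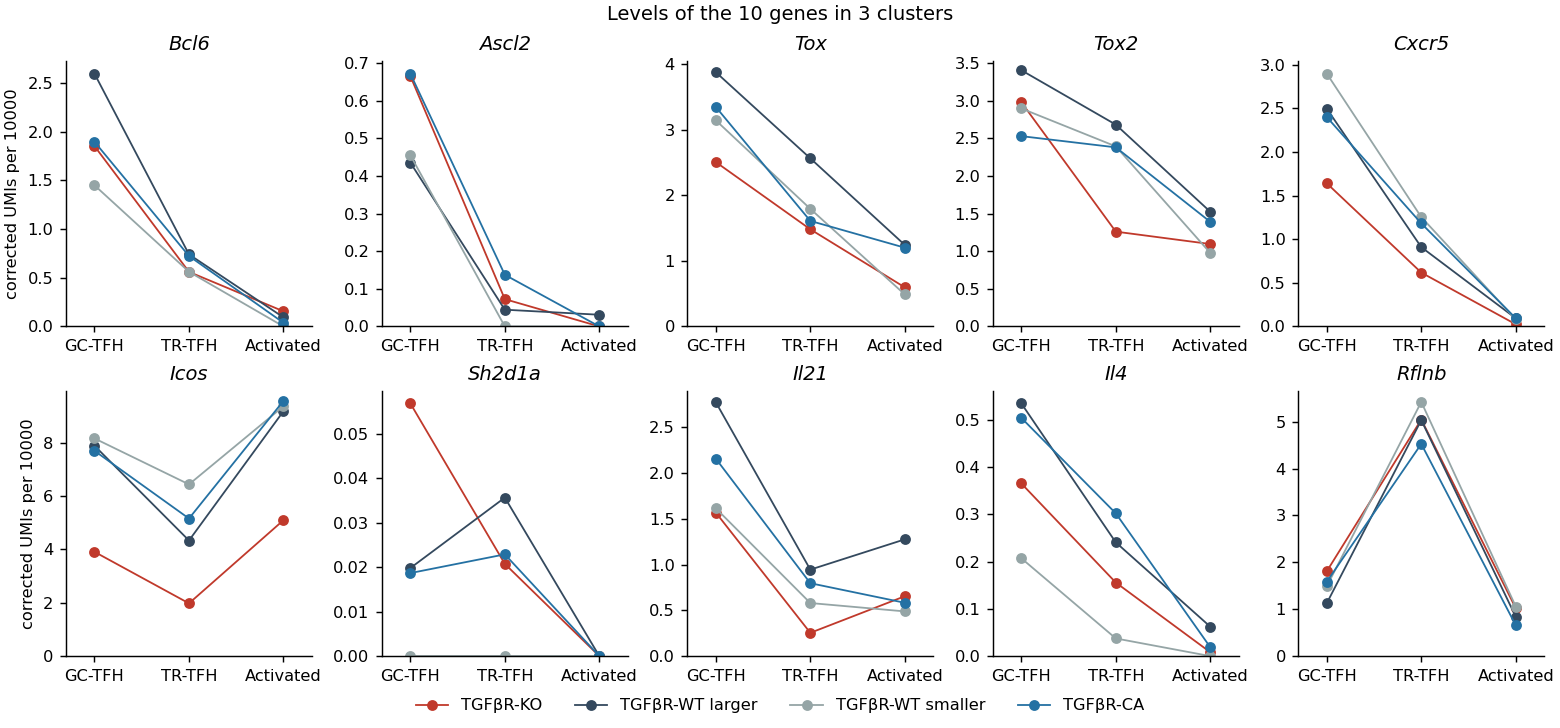
Levels of the 10 genes in corrected UMIs per 10000 (vertical axes from 0, with their own scale for each gene) in the GC-TFH, TR-TFH and Activated clusters, 1 point for each library or TGFβR-WT set and lines only to join points of one set. *Rflnb* peaked in TR-TFH cells in all 4 sets, from 4.53 to 5.42, and *Icos* was highest in Activated cells, with TGFβR-KO below the other sets in each of these clusters.

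Among the transcription factors, *Bcl6* (chromosome 16, 23965052 to 23988852, minus strand) was at 1.85 corrected UMIs per 10000 in TGFβR-KO GC-TFH cells, at 2.59 and 1.45 in the larger and the smaller TGFβR-WT set and at 1.90 in TGFβR-CA. In TR-TFH cells it was at 0.560, 0.740, 0.561 and 0.723 in that order. The groups did not overlap, and the GC-TFH level was 3.31 times that of TR-TFH cells in TGFβR-KO, 3.26 times in pooled TGFβR-WT and 2.62 times in TGFβR-CA, with 95% counting intervals of 2.62 to 4.20, 2.55 to 4.18 and 2.12 to 3.25. All such intervals cover counting error only, and corrected UMIs are not raw counts. *Bcl6* was found in 40.6% (exact Clopper-Pearson 95% interval 35.1% to 46.2%) of TGFβR-KO GC-TFH cells, in 51.1% and 34.5% of those of the larger and the smaller TGFβR-WT set and in 45.2% of those labelled TGFβR-CA. Its share in the Activated cluster, a non-TFH cluster of like depth (medians of 3729 to 4149 against 3636 to 4254 in GC-TFH), was between 0% and 4.40%. The share at 0 was that of the 29 cells of the smaller TGFβR-WT set, where 0 cells allow up to 10.3%. Such limits for a share at 0 are throughout 3 cells of the total, and not the upper end of the exact interval.

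*Ascl2* (chromosome 7, 142966829 to 142969264, minus strand), whose product is known to induce *Cxcr5*, parted the clusters by the largest ratio of the 10 genes in every condition. Its level in GC-TFH cells was 0.666 in TGFβR-KO, 0.436 and 0.455 in the TGFβR-WT sets and 0.672 in TGFβR-CA. In TR-TFH cells it was 0.0726, 0.0445, 0 and 0.137. The ratio was 9.17 in TGFβR-KO (5.17 to 17.5), 9.78 in the larger TGFβR-WT set (3.61 to 33.0) and 4.89 in TGFβR-CA (3.16 to 7.76), and the smaller set was at least 8.12-fold higher in GC-TFH cells by a floor of 3 counts. *Ascl2* was a rare transcript, found in 18.9%, 11.3%, 13.8% and 18.6% of GC-TFH cells and in at most 1 cell of any Activated group. Outside the GC-TFH and TR-TFH clusters 7 of 2138 TGFβR-KO cells held it (0.327%).

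*Tox* (chromosome 4, 6686353 to 6991557, minus strand) and *Tox2* (chromosome 2, 163203125 to 163324170, plus strand) encode HMG-box factors that promote the TFH program. *Tox* was at 2.51 in TGFβR-KO GC-TFH cells, at 3.88 and 3.15 in the TGFβR-WT sets and at 3.35 in TGFβR-CA, compared with 1.48, 2.57, 1.79 and 1.61 in TR-TFH cells. The sets overlapped between clusters, since the larger TGFβR-WT set in TR-TFH lay above TGFβR-KO in GC-TFH, but within each set the ratio was between 1.51 and 2.08. *Tox2* was at 2.98, 3.41, 2.90 and 2.53 in GC-TFH cells and at 1.26, 2.68, 2.39 and 2.38 in TR-TFH cells. Its ratio was 2.36 in TGFβR-KO (2.0 to 2.79), 1.25 in pooled TGFβR-WT (1.06 to 1.47) and 1.06 in TGFβR-CA (0.914 to 1.23), so the clusters differed past 1.5 in TGFβR-KO alone. The difference between these ratios was not tested. Neither gene was limited to TFH cells, since *Tox2* was found in 28.3% to 40.9% and *Tox* in 18.9% to 34.1% of Activated cells.

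Of the surface receptors, *Cxcr5* (chromosome 9, 44511787 to 44561877, minus strand) was at 1.64 in TGFβR-KO GC-TFH cells, at 2.49 and 2.90 in the TGFβR-WT sets and at 2.40 in TGFβR-CA, and in TR-TFH cells at 0.617, 0.909, 1.25 and 1.18. Every GC-TFH group was above every TR-TFH group, with ratios from 2.03 in TGFβR-CA (1.70 to 2.42) to 2.75 in the larger TGFβR-WT set (2.10 to 3.60). It was found in 39.3% to 56.3% of GC-TFH cells, in 19.1% to 39.1% of TR-TFH cells and in 0.629% to 3.45% of Activated cells. In the Tumorigenic cluster, which held 361 TGFβR-KO cells, 1 cell had it (0.277%), and in the CTL cluster 1 of 321 had it (0.311%).

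*Icos* (chromosome 1, 60977927 to 61000320, plus strand) was higher in GC-TFH than in TR-TFH cells of each set, but it was not highest in the TFH clusters. The paper counts *Icos* among the genes by which it named the GC-TFH cluster, so the contrast with TR-TFH describes the clusters. It was at 3.91 in TGFβR-KO GC-TFH cells, at 7.88, 8.15 and 7.69 in those of the larger and the smaller TGFβR-WT set and TGFβR-CA, and at 1.98, 4.33, 6.43 and 5.15 in TR-TFH cells. In Activated cells the levels were 5.09, 9.17, 9.36 and 9.56, above GC-TFH cells of the same set each time. The ratio of GC-TFH to TR-TFH was 1.98 in TGFβR-KO (1.72 to 2.27), 1.59 in pooled TGFβR-WT (1.43 to 1.77) and 1.49 in TGFβR-CA (1.36 to 1.63), the last just short of the limit. Within TGFβR-KO, the order of levels was Tumorigenic (6.80), Pre-tumorigenic (5.24), Activated (5.09), GC-TFH (3.91), Cycling (3.38), Migratory (2.98), TR-TFH (1.98) and CTL (1.89). Shares of Pre-tumorigenic and Activated cells with *Icos* (66.5% and 70.4%) had overlapping intervals, as did those of TR-TFH (38.3%) and CTL cells (37.4%).

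*Sh2d1a* (chromosome X, 42502453 to 42529330, plus strand), encoding the adaptor SAP that TFH cells need for stable contact with B cells, was close to absent. Only 39 corrected UMIs in 38 cells were in the whole table, with at most 2 in a cell. In GC-TFH cells 7 of 318 TGFβR-KO, 1 of 141 and 0 of 58 TGFβR-WT and 2 of 263 TGFβR-CA cells held it. In TR-TFH cells these counts were 4 of 519, 3 of 327, 0 of 133 and 5 of 556. The ratio in TGFβR-KO was 2.74 with an interval of 0.697 to 12.8, and no difference was detectable at this depth in any condition.

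Of the cytokines, *Il21* (chromosome 3, 37222759 to 37232636, minus strand) was at 1.57 in TGFβR-KO GC-TFH cells, at 2.77 and 1.61 in the TGFβR-WT sets and at 2.16 in TGFβR-CA. In TR-TFH cells it was at 0.254, 0.944, 0.580 and 0.796. The ratio was thus 6.17 in TGFβR-KO (4.49 to 8.62), 2.94 and 2.79 in the TGFβR-WT sets and 2.71 in TGFβR-CA. *Il21* was also found outside the TFH clusters, at 0.654, 1.27, 0.488 and 0.582 in Activated cells, which exceeded TR-TFH cells of the same origin in TGFβR-KO and for the larger set. The share of TGFβR-KO cells with *Il21* was 34.3% (29.1% to 39.8%) in GC-TFH, 13.5% (9.96% to 17.8%) in Activated and 6.94% (4.91% to 9.47%) in TR-TFH.

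*Il4* (chromosome 11, 53602982 to 53618669, minus strand) was rarer and closer to TFH cells, with 271 corrected UMIs in 205 cells. It was at 0.365, 0.535, 0.207 and 0.504 in GC-TFH cells of TGFβR-KO, the larger and the smaller TGFβR-WT set and TGFβR-CA, and at 0.156, 0.241, 0.0374 and 0.302 in TR-TFH cells. The clusters overlapped across sets, with ratios of 2.35 in TGFβR-KO (1.45 to 3.86), 2.45 in pooled TGFβR-WT (1.44 to 4.20) and 1.67 in TGFβR-CA (1.14 to 2.43). The smaller TGFβR-WT set rests on 5 against 2 corrected UMIs. Outside the TFH clusters, 2 of 2138 TGFβR-KO cells had *Il4* (0.0935%), and in the Tumorigenic and CTL clusters of TGFβR-KO 0 of 361 and 0 of 321 cells did, which allows shares of up to 0.831% and 0.935%.

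*Rflnb* (chromosome 11, 76019194 to 76027782, minus strand) encodes refilin B, a regulator of filamin and actin bundles. It was at 1.81 in TGFβR-KO GC-TFH cells, 1.13 and 1.49 in those of the TGFβR-WT sets and 1.59 in TGFβR-CA, and at 5.05, 5.03, 5.42 and 4.53 in TR-TFH cells. No GC-TFH group came near a TR-TFH group, and the level was 2.79 times as high in TR-TFH cells of TGFβR-KO, 4.14 times in pooled TGFβR-WT and 2.85 times in TGFβR-CA. It was found in 61.7% to 69.9% of TR-TFH cells and 27.7% to 34.6% of GC-TFH cells. In TGFβR-KO it was next highest in GC-TFH (1.81) and Migratory cells (1.5), whose shares of 34.6% (29.4% to 40.1%) and 33.5% (30.2% to 36.8%) overlapped, and lowest in Tumorigenic cells (0.142). Migratory cells were above GC-TFH cells in the larger TGFβR-WT set, at 1.77, and in TGFβR-CA, at 2.9.

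**Figure D2:**
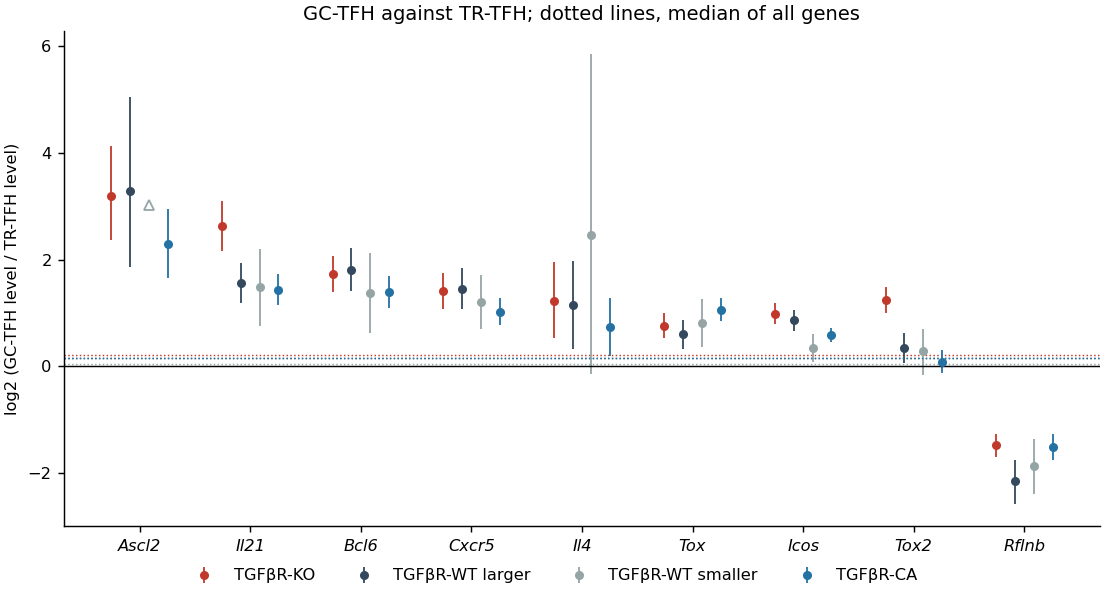
The log2 ratio of the level in GC-TFH to that in TR-TFH cells for 9 genes (*Sh2d1a* left out for its low count), 1 point for each library or TGFβR-WT set, with 95% counting intervals. The open triangle is a lower bound, computed against a floor of 3 counts where TR-TFH cells had none, the dotted lines are medians of all genes, and *Rflnb* alone lies below 0.

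**Figure D3:**
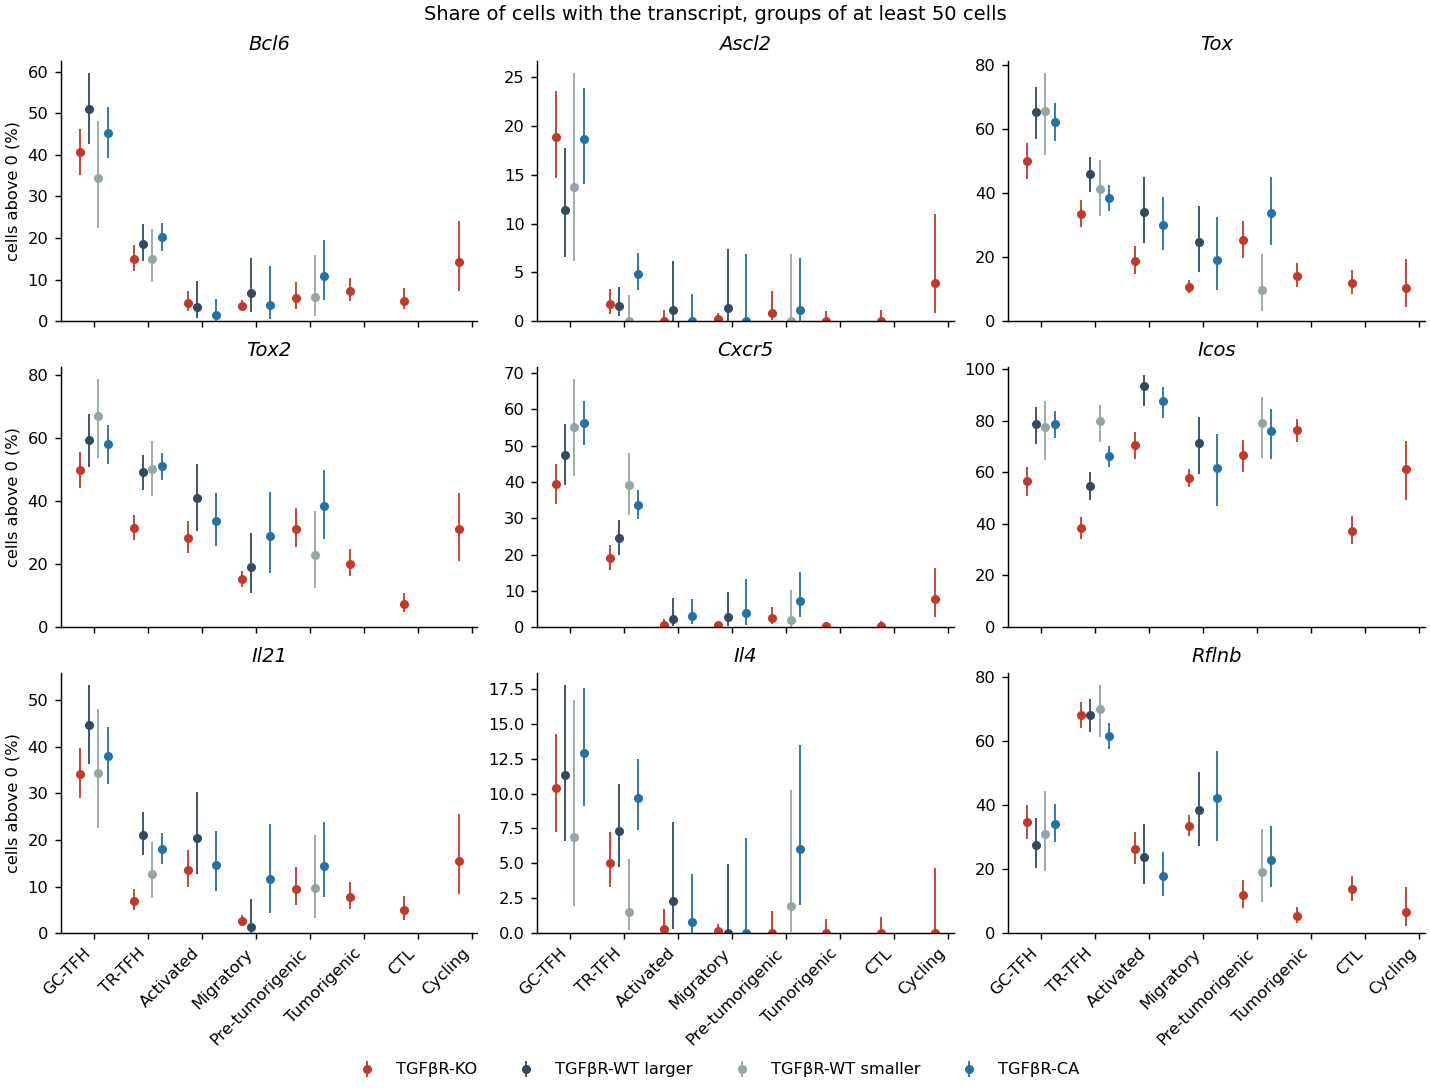
Share of cells in which each of 9 genes was found (vertical axes in percent, with their own scales), in each cluster with at least 50 cells, with exact Clopper-Pearson 95% intervals. Outside GC-TFH and TR-TFH cells, *Cxcr5*, *Ascl2* and *Il4* were found in at most 7.79% of a group drawn (*Cxcr5* in TGFβR-KO Cycling cells). *Il4* was in 6.02% of TGFβR-CA Pre-tumorigenic cells, above its 5.01% in TGFβR-KO TR-TFH cells. *Icos*, *Tox* and *Tox2* were found in every group drawn.

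TGFβR-KO was compared with TGFβR-WT within each cluster to see whether the genes moved with loss of the receptor. In GC-TFH cells, *Cxcr5* and *Icos* were lower in TGFβR-KO than in both TGFβR-WT sets past 1.5, 2 of the 9 genes against 5.9% of all genes, and none was higher, against 2.79%. In TR-TFH cells, *Icos*, *Il21* and *Tox2* were lower, 3 of the 9 against 8.06%, and none was higher, against 1.6%. The median of all genes was itself shifted in TR-TFH cells, by -0.16 and -0.22 on the log2 scale against the larger and smaller set. For some genes the larger and the smaller set were as far apart. *Bcl6*, *Il21* and *Il4* were at least 1.5 times as high in the larger as in the smaller set in GC-TFH cells (17.1% of all genes) and *Il21* and *Il4* in TR-TFH cells (13.2%), while none of the 10 was lower in the larger set, against 17.5% and 16.8%.

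*Icos* was the only member called in both clusters by its level. By the share of cells with the gene it was called in neither, and by the mean of the deposited log values in GC-TFH cells only. In GC-TFH cells the TGFβR-KO level of 3.91 was 0.496 times that of the larger set (0.433 to 0.567) and 0.479 times that of the smaller set (0.405 to 0.568). In TR-TFH cells the level of 1.98 was 0.456 times (0.398 to 0.523) and 0.307 times (0.265 to 0.356) those of the sets. The share of TR-TFH cells with *Icos* was 38.3% (34.1% to 42.7%) in TGFβR-KO, 54.7% (49.2% to 60.2%) and 79.7% (71.9% to 86.2%) in the TGFβR-WT sets and 66.2% (62.1% to 70.1%) in TGFβR-CA. TGFβR-KO was also the lowest in Activated cells, and in Migratory cells it was at 2.98 against 5.10, 7.10 and 5.03, although the smaller TGFβR-WT set had only 16 Migratory cells. In Pre-tumorigenic cells TGFβR-KO, at 5.24, lay between the TGFβR-WT sets, at 4.06 in 27 cells and 6.09 in 52 cells.

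*Il21* and *Tox2* were lower in TGFβR-KO in TR-TFH cells. *Il21* was at 0.254 there, 0.269 times the larger set (0.188 to 0.381) and 0.438 times the smaller set (0.274 to 0.711). In GC-TFH cells it was 0.565 times the larger set but 0.971 times the smaller set (0.685 to 1.41), so it was not called. *Tox2* was 0.470 times the larger (0.395 to 0.558) and 0.526 times the smaller set (0.423 to 0.657) in TR-TFH cells. In GC-TFH cells its ratios were 0.875 (0.728 to 1.05) and 1.03 (0.794 to 1.35), so it was not called there. Shares of TR-TFH cells followed the levels, with *Tox2* in 31.6% (27.6% to 35.8%) of TGFβR-KO cells and in 49.2% and 50.4% of those of the TGFβR-WT sets.

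*Cxcr5* in GC-TFH cells was 0.657 times the larger (0.524 to 0.828) and 0.566 times the smaller set (0.429 to 0.754) in TGFβR-KO. This call lay close to the limit. Without cells holding at least 2 B or plasma cell genes, the log2 ratio to the larger set moved from -0.61 to -0.56, within its interval but short of 1.5-fold. In GC-TFH cells of the smaller set all 6 B cell genes were at 0, and *Cxcr5* was higher than in the larger set. The sets differ in other genes too, and whether B cell transcripts play a part in *Cxcr5* was not tested. By the share of cells with *Cxcr5* it was not called either. In TR-TFH cells, *Cxcr5* was 0.679 and 0.493 times the sets, passing against the smaller set only. *Bcl6* was not called in either cluster, with ratios of 0.714 and 1.28 in GC-TFH cells and 0.757 and 0.999 in TR-TFH cells. *Tox* was below both sets in both clusters, by ratios between 0.578 and 0.826, and passed 1.5 against the larger set only.

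*Ascl2* was above both TGFβR-WT sets. In GC-TFH cells it was 1.53 times the larger (0.945 to 2.57) and 1.46 times the smaller set (0.776 to 3.04) in TGFβR-KO, which falls short of the limit. *Rflnb* was 1.60 and 1.22 times the sets in GC-TFH cells and 1.0 and 0.931 times in TR-TFH cells, where its interval against the larger set was 0.903 to 1.11. *Il4* was 0.683 times the larger and 1.76 times the smaller set in GC-TFH cells, so its direction depended on the set. For the 10 genes as a group, the median over the 9 with at least 200 corrected UMIs was -0.55 and 0.04 against the larger and smaller set in GC-TFH cells and -0.63 and -0.28 in TR-TFH cells.

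Between cells labelled TGFβR-CA and TGFβR-WT, 1 member was called. In GC-TFH cells none of the 10 was called higher or lower, against 2.71% and 5.05% of all genes. In TR-TFH cells *Ascl2* was higher in TGFβR-CA, 1 of the 9 against 1.72%, and none was lower, against 4.11%. *Ascl2* was found in 27 of 556 TGFβR-CA cells (4.86%, 3.22% to 6.99%), in 5 of 327 of the larger set (1.53%, 0.498% to 3.53%) and in 0 of 133 of the smaller set, which allows up to 2.26%. Its level was 3.08 times that of the larger set (1.18 to 10.2) and at least 2.45-fold higher than in the smaller set. This direction rests on the labels, which *Tgfbr1* does not check, since its level in TGFβR-CA lay between those of the TGFβR-WT sets.

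*Icos*, which was called in TGFβR-KO, lay close to TGFβR-WT in TGFβR-CA, with ratios of 0.976 (0.865 to 1.10) and 0.943 (0.806 to 1.11) of TGFβR-CA to the TGFβR-WT sets in GC-TFH cells. In TR-TFH cells these were 1.19 (1.07 to 1.33) and 0.801 (0.709 to 0.907), on opposite sides of 1. *Tox* in TR-TFH cells was 0.628 times the larger (0.536 to 0.736) and 0.897 times the smaller set (0.714 to 1.14) in TGFβR-CA. *Il4* in TR-TFH cells was at 0.302 in TGFβR-CA, 1.26 times the larger set (0.791 to 2.04), and the smaller set held 2 corrected UMIs.

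**Figure D4:**
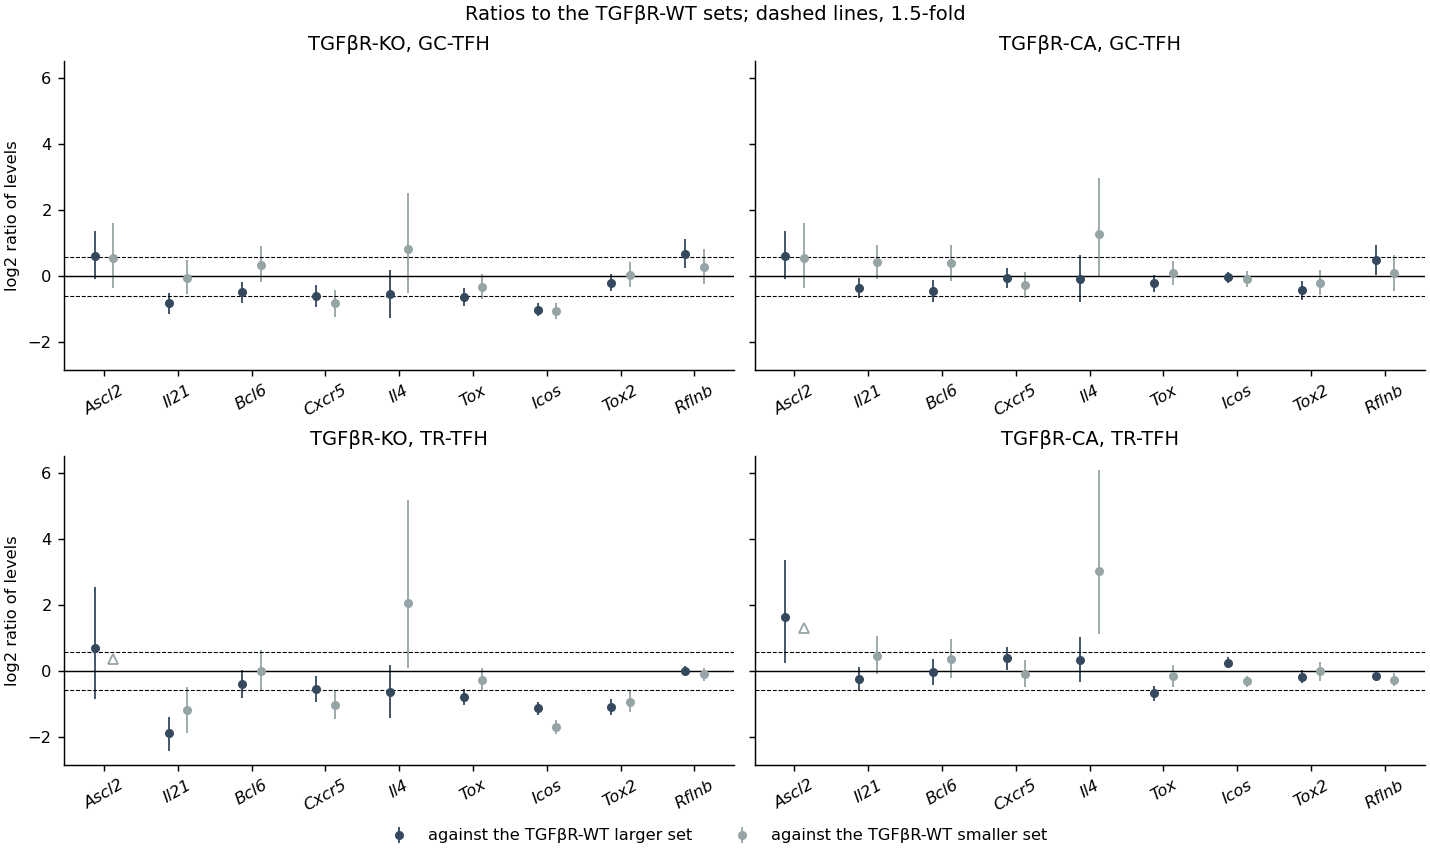
The log2 ratio of the level in TGFβR-KO (left) or TGFβR-CA (right) cells to that in each TGFβR-WT set, in GC-TFH (top) and TR-TFH cells (bottom), for 9 genes with 95% counting intervals. Dashed lines mark 1.5-fold, open triangles are lower bounds against a set with no count, labels are those of the cells, and *Icos* lies below the lower dashed line against both sets in both clusters of TGFβR-KO.

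Cells were next scored by how many of 8 genes they held, without *Sh2d1a* for its low count and without *Rflnb*. At least 3 of the 8 were found in 58.8% (53.2% to 64.3%) of TGFβR-KO GC-TFH cells, in 76.6% (68.7% to 83.3%) and 69.0% (55.5% to 80.5%) of those of the TGFβR-WT sets and in 78.3% (72.8% to 83.2%) of TGFβR-CA cells. In TR-TFH cells the shares were 18.9% (15.6% to 22.5%), 41.3% (35.9% to 46.8%), 45.9% (37.2% to 54.7%) and 46.6% (42.4% to 50.8%). TGFβR-KO thus had the lowest share in both clusters, though its GC-TFH interval overlapped that of the smaller set. Outside TFH, TGFβR-KO shares ran from 2.18% in CTL to 16.96% (12.3% to 22.4%) in Pre-tumorigenic cells, whose interval overlapped that of TR-TFH cells. In Activated cells of the larger TGFβR-WT set the share was 31.8% (22.3% to 42.6%), also overlapping TR-TFH cells. In TGFβR-CA Pre-tumorigenic cells it was 27.7% (18.45% to 38.6%), below TR-TFH cells. The 8 genes include *Icos*, which was not highest in the TFH clusters, and a score without it was not tested.

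After thinning every cell to 2500 corrected UMIs, with no cell left out, the GC-TFH shares were 43.4% in TGFβR-KO, 67.4% and 51.7% in the TGFβR-WT sets and 54.8% in TGFβR-CA. In TR-TFH cells they were 9.06%, 26.6%, 27.8% and 27.0%. TGFβR-KO stayed the lowest, whereas the order of TGFβR-CA and the larger TGFβR-WT set in GC-TFH cells changed, so no order between these is read.

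Cells with none of the 8 genes made up 5.03% of TGFβR-KO GC-TFH cells, 21.6% of TR-TFH cells and 46.4% of CTL cells. Other TGFβR-KO clusters lay on both sides of TR-TFH cells. The shares were 15.4% in Activated, 17.2% in Tumorigenic, 18.7% in Pre-tumorigenic, 26.0% in Cycling and 31% in Migratory cells. By this count TR-TFH cells were thus not set apart from clusters outside TFH. At least 5 genes were found in 17% (13.0% to 21.6%) of TGFβR-KO GC-TFH cells and 30.6% (24.3% to 37.6%) of pooled TGFβR-WT GC-TFH cells, against 0 of 318 and 0 of 117 Activated cells, which allow up to 0.943% and 2.56%. A few Cycling TGFβR-KO cells, 5 of 77, also held at least 5.

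**Figure D5:**
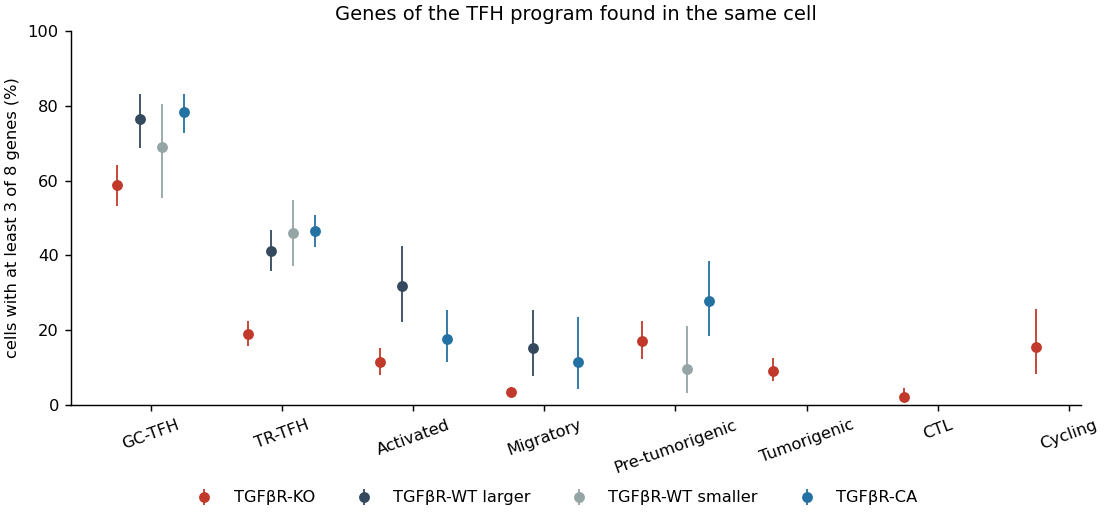
Share of cells (in percent, with exact Clopper-Pearson 95% intervals) in which at least 3 of 8 TFH genes were found together, by cluster with at least 50 cells. GC-TFH cells were the highest in each set, from 58.8% to 78.3%, and the TGFβR-KO points were the lowest in GC-TFH and TR-TFH cells.

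Other genes of the TFH program followed the same contrast in part. Of 43 listed genes, 40 had at least 200 corrected UMIs. Of these 40, 23, 20 and 21 were higher in GC-TFH than in TR-TFH cells in TGFβR-KO, TGFβR-WT and TGFβR-CA, while 3, 5 and 3 were lower. Over all genes, 23.2%, 16.8% and 16.2% were higher and 6.45%, 8.25% and 6.02% lower. Some of the listed genes mark the clusters in the study itself, so the list is not independent of the clusters. The list's median log2 ratio was 0.71, 0.57 and 0.64. In all 4 sets at once 15 were higher and 2 lower, compared with 3.59% and 0.788% of all genes.

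The gene with the largest ratio was *Sostdc1*, encoding a secreted antagonist of BMP and WNT signals, at 2.40, 4.91, 5.88 and 5.79 in GC-TFH cells of TGFβR-KO, the larger and the smaller TGFβR-WT set and TGFβR-CA, and at 0.259, 0.615, 1.08 and 1.14 in TR-TFH cells. *Tnfrsf4*, encoding the costimulatory receptor OX40, was at 4.67, 4.06, 2.82 and 3.98 in GC-TFH and at 0.716, 0.953, 0.916 and 1.11 in TR-TFH cells. *Angptl2*, encoding an angiopoietin-like secreted protein, was at 0.723, 1.43, 1.20 and 1.33 against 0.0933, 0.463, 0.355 and 0.334. At the other end, *Gpr183*, encoding the oxysterol receptor EBI2 that holds cells outside the follicle center, was 1.82 to 3.74 times as high in TR-TFH cells. *Slamf6*, a SLAM family receptor that signals through SAP, was 1.53 to 2.63 times as high there, and *Lef1*, a TCF family factor, 1.49 to 2.37 times.

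In TGFβR-KO, 5 of the 40 genes were lower than in both TGFβR-WT sets in GC-TFH cells (*Cxcr4*, *Sostdc1*, *Angptl2*, *Tbc1d4* and *Rgs10*) and 11 in TR-TFH cells, compared with 5.9% and 8.06% of all genes. None was higher in either, against 2.79% and 1.6%. The list medians were -0.24 and -0.40 on the log2 scale, averaged over the sets, beside medians of all genes between -0.08 and -0.22. In TGFβR-CA, *Tcf7* and *Hif1a* were higher and *Cxcr4* lower in GC-TFH cells, and *P2rx7* and *Hif1a* higher in TR-TFH cells. These are 2 and 1 of 40 genes in GC-TFH and 2 of 40 in TR-TFH cells, beside 2.71%, 5.05% and 1.72% of all genes, and nothing is read from such small counts. *Pdcd1*, encoding the inhibitory receptor PD-1 and a marker of germinal center TFH cells, was in neither TGFβR-KO list. It stood at 4.42, 4.57, 5.67 and 6.95 in GC-TFH cells and at 0.809, 1.09, 1.87 and 2.24 in TR-TFH cells.

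Genes known to oppose the TFH program, or to be low in it, were also followed. Of 19 listed, 18 had at least 200 corrected UMIs, and 6, 5 and 4 were higher in GC-TFH cells in TGFβR-KO, TGFβR-WT and TGFβR-CA, while 5, 5 and 6 were lower. Of all genes, 23.2%, 16.8% and 16.2% were higher and 6.45%, 8.25% and 6.02% lower. The list's median log2 ratio was -0.13, -0.23 and -0.05. *Il2rb*, encoding the IL-2 receptor β chain, was 1.93 to 3.04 times as high in GC-TFH cells, *Cxcr6*, a tissue-homing chemokine receptor, 1.51 to 3.14 times, and *Stat5a*, encoding the factor downstream of IL-2, 1.44 to 2.35 times. *Il7r*, encoding the IL-7 receptor α chain, was lower in GC-TFH cells in all sets, at 0.674 against 5.42 in TGFβR-KO and at 0.336 against 4.50 in TGFβR-CA. The paper named the TR-TFH cluster in part by high *Il7r*, so this direction describes the clusters and is not an independent result. *Klf2*, which restrains TFH fate and maintains egress receptors, was 2.49 to 3.48 times as high in TR-TFH cells, and the lymph node homing receptor *Ccr7* 2.42 to 5.61 times.

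Compared with both TGFβR-WT sets, 5 of these 18 genes were higher in TGFβR-KO GC-TFH cells (*Prdm1*, *Klf2*, *Il2ra*, *Id2* and *Cxcr6*) and 1 was lower (*Ccr7*), compared with 2.79% and 5.9% of all genes. *Cxcr6* was at 2.74 there against 0.752 and 0.704, and *Klf2* at 0.503 against 0.218 and 0.166. *Prdm1*, which encodes BLIMP-1, the repressor that opposes BCL6, was at 0.227 in TGFβR-KO and at 0.0396 (2 corrected UMIs) and 0 in the sets. In TR-TFH cells, 4 were higher (*Klf2*, *Il2ra*, *Selplg* and *Cxcr6*), against 1.6%. In TGFβR-CA none of the 18 was higher, against 2.71% and 1.72% of all genes in GC-TFH and TR-TFH cells, and 6 and 3 were lower, against 5.05% and 4.11%.

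The genes whose levels were most like those of each member were found over 20 groups of at least 50 cells (cluster by library or set), by Pearson's r of log2(level + 0.1 per 10000). The groups share libraries and depth, and r is a description. *Cxcr5* was most like *Ptpn11* (r = 0.963), *Cebpa* and *2310001H17Rik*, *Bcl6* was most like *Cebpa* (0.929), *Sostdc1* and *Cxcr5*, and *Ascl2* was most like *Hivep3* (0.941), *Cebpa* and *Ppp1r14b*. *Tox* was most like *Pou2af1* (0.927), *Trim8* and *Ptpn11*, and *Tox2* was most like *Ikzf2* (0.928), *Ighm* and *Plekho1*. For *Il21* they were *Eea1* (0.898), *Ivns1abp* and *Angptl2*, and for *Il4* they were *Atp1b1* (0.909), *Trim8* and *Nanos1*. *Icos* was most like *Bcl2a1d* (0.887), *Bcl2a1b* and *Smox*, of which the first pair are near-identical copies that could share reads. *Rflnb* was most like *Slamf6* (0.904), *Gm35363* and *Aff3*. Among the members themselves, *Cxcr5* and *Bcl6* were the closest pair (0.925), *Icos* had values of 0.08 to 0.58 with the genes other than *Rflnb*, and *Rflnb* lay between -0.14 and 0.53 with all others.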

How the data were processed

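Droplet-based 3′ single-cell RNA sequencing of sorted YFP+CD4+ T cells was deposited as 1 table of 13265 genes by 5080 cells, with a row that names each cell's cluster. The submitters' processing notes name Cell Ranger 3.1.0, Seurat and the build mm10. The values the authors deposited are the natural log of 1 plus a corrected UMI count, a count adjusted for the depth of its cell. Undoing the log gave whole numbers within 1e-06. Since a corrected value is not a raw count, count models were not applied. Cells were assigned to a condition by the start of their name. The table does not tie TGFβR-WT cells to their 2 samples. Clusters are those of the authors.

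Levels are sums of corrected UMIs per 10000 over the cells of a group. Shares have exact Clopper-Pearson 95% intervals, and ratios have intervals from the exact binomial share of their counts, covering counting error only. A share at 0 is given with the limit of 3 cells of the total. No test was made, since TGFβR-KO and TGFβR-CA are single samples and TGFβR-WT cells could not be assigned to theirs. A difference was called at a ratio of at least 1.5, over 7490 genes with at least 200 corrected UMIs, and a group with 3 or fewer counts entered at a floor of 3 only where that made a difference smaller. All 10 genes are named. Of each list, the 3 genes with the largest and the 3 with the smallest ratio of GC-TFH to TR-TFH cells are named, ranked by the ratio nearest to 1 among the 4 sets, and other list genes only where they were called against TGFβR-WT or, for *Pdcd1*, after its values were seen. The members and lists were chosen with earlier results of these data known. The calculations were tested on simulated data.

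Median depth by condition or set was 3440 to 3984 corrected UMIs a cell. Doublets were not removed. Scrublet, in scanpy 1.11.5, marked 0.134% of TGFβR-KO cells and 0.141% of the larger TGFβR-WT set, too few to have worked there, and 6.71% of the smaller set and 1.64% of TGFβR-CA. Alternatives changed the cells, the measure, the scaling, the limit, the filter and the TGFβR-WT cells. Gene positions are from GENCODE M21 (GRCm38), and promoters from RefSeq (GRCm38.p6). Python 3.11.15, numpy 2.4.6, pandas 2.3.3, scipy 1.17.1 and matplotlib 3.10.9 were used.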

Additional observations from a re-analysis of the deposited data

How the results depend on the processing

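The counts of genes that passed 1.5 were recomputed under each alternative, over all 10 genes with *Sh2d1a* included. With the mean of the deposited log values, counts of genes higher in GC-TFH cells fell to 0 in TGFβR-KO, TGFβR-WT and TGFβR-CA. Those lower in TGFβR-KO became 1 in GC-TFH and 0 in TR-TFH cells, and that higher in TGFβR-CA TR-TFH cells became 0. A limit of 1.5 on this mean is not the same as on the level, so these counts cannot decide on the ratios of levels. Genes lower in TGFβR-KO GC-TFH cells numbered 0 by the share of cells, 1 with the median gene ratio set to 1, 1 at a limit of 2, 1 without cells holding 2 B or plasma cell genes and 4 against the larger TGFβR-WT set alone. Those lower in TGFβR-KO TR-TFH cells numbered 6 against the larger set alone and 5 against pooled TGFβR-WT. Genes higher in TGFβR-KO than TGFβR-WT numbered 2 (larger set alone) and 1 (smaller set alone, pooled TGFβR-WT or median ratio set to 1) in GC-TFH cells, and 1 under each of these 4 settings in TR-TFH cells. For TGFβR-CA they numbered 1 under each of the same 4 settings in GC-TFH cells and 2 against the smaller set alone or pooled TGFβR-WT in TR-TFH cells, and 2 were lower there against the larger set alone. Passing 1 set alone is a looser rule than passing both, and shares of all genes under each alternative are not given here. These counts are therefore not read as results about the members. The cause of these moves was not tested. No called direction of a named gene reversed under any alternative. Leaving out doublets or cells with shared barcodes changed none of these counts by over 1.5 times. This could hardly have come out otherwise, since few cells were left out. Doublets marked were 0 in both TFH clusters of TGFβR-KO, and 0 in GC-TFH and 1 in TR-TFH cells of the larger TGFβR-WT set. At most 1 cell of any of these groups shared a barcode. The outcome therefore does not show that doublets play no part.

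With cells thinned to 2500 corrected UMIs, chosen after seeing the data, the share of GC-TFH cells with at least 3 genes fell to 43.4% (TGFβR-KO), 62.8% (TGFβR-WT) and 54.8% (TGFβR-CA). Of 27 pairs of a member and a most similar gene, 16 recurred with a pseudocount of 0.5, 11 with groups of at least 100 cells and 10 with Spearman's rho. No paired analysis was possible because there is 1 sample each of TGFβR-KO and TGFβR-CA, and TGFβR-WT cells carry no sample number. The sequencing runs that the paper describes were not assigned to the TGFβR-WT sets, so comparisons within a run could not be told from those across runs. Rare transcripts, *Sh2d1a*, *Ascl2* and *Il4*, rest on few counts in the smaller TGFβR-WT set, and with single libraries of TGFβR-KO and TGFβR-CA the receptor and the library cannot be told apart.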

Other observations

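Within GC-TFH cells some of these genes were found together more often than others. The pairs given here were chosen after their values were seen, among all pairs of 9 genes, and no test was made. *Cxcr5* and *Bcl6* went together, with *Bcl6* in 53.6% of TGFβR-KO cells that held *Cxcr5* and in 32.1% of those that did not, and in 56.6% and 36.0% in pooled TGFβR-WT and 52.0% and 36.5% in TGFβR-CA. *Ascl2* was likewise in 28.0%, 17.2% and 26.4% of cells with *Cxcr5* and in 12.9%, 7.0% and 8.70% of cells without it. *Il21* was not tied to *Cxcr5* in this way, with 36.0%, 42.4% and 40.5% in cells with *Cxcr5* and 33.2%, 41.0% and 34.8% in cells without.

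*Rflnb*, which was lower in the GC-TFH cluster as a whole, was found there in 50.4% of TGFβR-KO cells with *Cxcr5* and 24.4% of those without, in 40.4% and 17% in pooled TGFβR-WT, and in 36.5% and 31.3% in TGFβR-CA. Median depth was 3600 corrected UMIs in TGFβR-KO cells with *Cxcr5* and 4061 in those without. In TGFβR-KO GC-TFH cells *Icos* was in 30.3% of the 33 cells with *Il4* and in 59.6% of the 285 without, whereas in pooled TGFβR-WT these shares were 75.0% and 78.8%. Outside the TFH clusters, *Il4* was found in 5 of 83 Pre-tumorigenic TGFβR-CA cells (6.02%, 1.99% to 13.5%) and in 0 of 230 of TGFβR-KO, which allows up to 1.30% by the limit of 3 cells.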
